A study of Xenopus laevis with 9 samples.

Results

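Genes of the cilium and of the multiciliated cell were followed through cranial neural crest explants of the frog Xenopus laevis in which the metalloprotease ADAM13 had been targeted. They were taken from the array annotation by name: every probe set whose symbol starts with tekt, bbs, dnah, dnai, dnal or cfap, or with ift and a digit, or is foxj1, rfx2, ccno, mcidas, cetn4 or tmem107. This gave 35 of the 15491 probe sets on the array, and 30 of the 7531 gene symbols that the annotation gives to a probe set on their own. The 30 are copies of 27 genes, since X. laevis carries many genes as an .L and an .S copy, and cfap20.L (3 probe sets), cfap45.S, dnah9.S and dnal4.S are measured more than once. The annotation used here gave no probe set to foxj1 or mcidas, so those regulators are not analysed here.

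The embryos fell into 3 groups of 3 arrays. MO13_C13 embryos received 10 ng of a morpholino against ADAM13 together with mRNA for the ADAM13 cytoplasmic domain joined to GFP, at 300 pg by the sample labels and 0.5 ng by the series text. MO13 embryos received 10 ng of the ADAM13 morpholino alone, and CMO embryos 10 ng of a control morpholino. Every embryo was injected at the one-cell stage, so the whole embryo carried the reagents, was kept at 15 °C to stages 15 to 17, and gave crest tissue that went straight to RNA extraction. The 3 arrays of a group come from 3 independent experiments, numbered 1 to 3 here, each with a CMO, a MO13 and a MO13_C13 sample.

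A cilium grows from a basal body, a modified centriole, and is closed off from the cytoplasm by the transition zone at its base. Intraflagellar transport carries building blocks along the shaft, the BBSome moves membrane proteins, and a motile cilium adds dynein arms and inner microtubule proteins to its axoneme. Most vertebrate cells can bear a single primary cilium, through which hedgehog signals pass, whereas the skin of the frog embryo holds multiciliated cells whose programme is switched on by foxj1, mcidas, ccno and RFX factors.

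The targeted gene was read first. ADAM13 is listed under its current name adam33, and the adam33.L probe set stood at 10.00, 9.98 and 10.23 (log2 intensity) in the MO13_C13 arrays, at 4.42, 3.78 and 4.81 in the MO13 arrays, and at 3.07, 4.50 and 3.34 in the CMO arrays. The MO13_C13 arrays thus stand far above all others, as labelled, while MO13 and CMO overlap, and a morpholino need not alter the level of its target mRNA. It was the single probe set of the array to pass in MO13_C13 against MO13 (log2 difference 5.73, limma adjusted p = 0.00471). Whether the probes lie within the injected domain was not checked. Array medians ran from 4.88 to 5.07. Of 15 measured cranial neural crest marker genes, 12 had a probe set above the array median on all 9 arrays, among them sox9, sox10, snai2, foxd3 and tfap2a. No muscle marker did (0 of 6 measured genes), whereas 8 of 11 measured epidermal markers and 7 of 9 measured neural plate markers did. Of the measured floor plate, notochord and node markers, 2 of 7 did. The explants are bulk tissue, so fewer cells of a type and less RNA per cell cannot be told apart in any value below.

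Probe sets for tektins, dynein arms and cilia- and flagella-associated proteins (cfap), grouped by name, were mostly dim. Of these 22, 16 lay under the array median on every array, against 2 of the 9 for intraflagellar transport and the BBSome. The cyclin gene ccno.L, needed for centriole amplification in multiciliated cells, also lay under the median throughout, at 2.71, 3.31 and 2.19 in MO13_C13, 2.93, 3.46 and 1.70 in MO13, and 2.66, 2.80 and 1.89 in CMO. In all, 19 of the 35 probe sets were under the median on all arrays, against 45.4% of the whole array. The dynein heavy chain dnah9.S (both probe sets) and the tektin tekt2.L stayed under the lower quartile of every array (1.78 to 1.89). The 8 probe sets above the median on all arrays were those of cetn4.L, cfap298.L, cfap36.L, ift20.L, ift46.S and ift57.S, with a single one each for dnal4.S and cfap20.L. Probe sets differ in their response to RNA, so these positions place each value on its own array and rank no gene above another.

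The transition zone gene tmem107.L was the member that passed as lower. It was read by 1 probe set, and the annotation gave none to an .S copy, so no second reading of the gene was available. TMEM107 is a membrane protein of the ciliary transition zone, where it helps to anchor the protein complex that gates the cilium. Its log2 intensity was 4.00, 3.66 and 4.02 in MO13_C13, 3.60, 3.80 and 3.85 in MO13, and 5.80, 5.43 and 5.57 in CMO. All 6 arrays with the ADAM13 morpholino lay below all 3 CMO arrays, and below their own array medians, while the CMO arrays lay above theirs. The MO13 mean was 3.75 ± 0.13 against 5.60 ± 0.19 in CMO (SD, n = 3 each), a 3.61-fold lower intensity, or -1.85 on the log2 scale (95% interval -2.20 to -1.50, limma adjusted p = 0.0064). Within experiments 1, 2 and 3 the MO13 minus CMO difference was -2.20, -1.63 and -1.72. It was the only member of 35 to pass in MO13 against CMO at an adjusted p under 0.05, where 0.0968% of all probe sets passed (0.0452% as lower). The members were chosen with earlier results of these data known, so the count of members cannot be weighed against that share.

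With the cytoplasmic domain added, tmem107.L was low as well. The MO13_C13 mean was 3.89 ± 0.20 (SD, n = 3), which is -1.71 from CMO (95% interval -2.05 to -1.36, limma adjusted p = 0.0102), with -1.80, -1.77 and -1.55 in the 3 experiments. It was again the single member to pass, where 0.142% of all probe sets did, with the same limit on the count. MO13_C13 against MO13 gave 0.14 (95% interval -0.20 to 0.49, limma adjusted p = 1), and those groups overlap. The upper end of that interval is well short of the difference from CMO, which the MO13 and MO13_C13 comparisons share as their control. The group accounted for 97.2% of this probe set's sum of squares over the 9 arrays, and the experiment for 0.96%. In a fit with experiment as a block the limma adjusted p was 0.00618 for MO13_C13 and 0.00769 for MO13 against CMO, where 1.76% and 1.16% of all probe sets passed. The call rested on few arrays: for MO13 against CMO the adjusted p was 0.0549 without the MO13 array of experiment 2 and 0.412, 0.432 and 0.209 without experiment 1, 2 or 3, and for MO13_C13 against CMO it was 0.0513, 0.0524 and 0.0521 without MO13_C13 array 2, CMO array 1 or CMO array 3, and 0.344, 0.393 and 0.165 without each experiment. The difference itself stayed between -1.96 and -1.68 and between -1.79 and -1.59 over the settings tried.

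**Figure D1:**
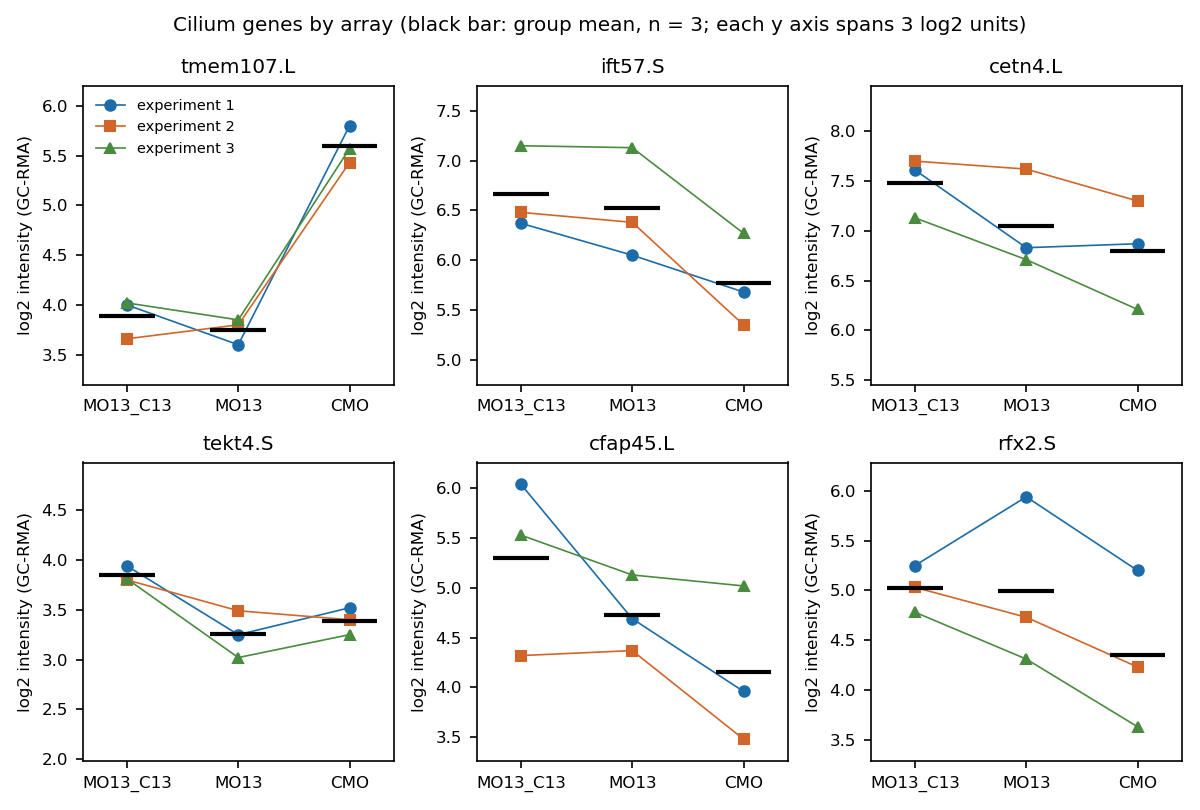
Log2 intensity (GC-RMA) of 6 cilium probe sets on each array, with groups on the x axis, lines joining arrays of an experiment and black bars at the group means (n = 3). For tmem107.L all MO13_C13 and MO13 points (3.60 to 4.02) lie below the CMO points (5.43 to 5.80), for ift57.S each experiment's CMO array is its lowest, and for tekt4.S the MO13_C13 arrays (3.80 to 3.94) are the highest.

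No other measured gene of the transition zone passed. Of 22 further genes listed for this structure 5 were measured, with 6 probe sets. In limma 0 of the 6 passed in any comparison, with or without the block, and 0 had an unadjusted p under 0.05 without it. With the block 2 were under it, both higher in MO13_C13: b9d2.L against CMO (0.31, limma adjusted p = 0.272) and one invs.S probe set against CMO (0.25, limma adjusted p = 0.298) and against MO13 (0.24, limma adjusted p = 0.721). That invs.S probe set was dim, with means of 1.57 in MO13_C13, 1.33 in MO13 and 1.33 in CMO. The median MO13 minus CMO difference of the 6 was -0.01, equal to that of all probe sets. For example, the transition zone complex gene b9d2.L averaged 2.75 in MO13 against 2.47 in CMO, a log2 difference of 0.28 (limma adjusted p = 0.949), and mks1.L 4.03 against 4.26, a difference of -0.23 (limma adjusted p = 0.976).

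Intraflagellar transport was represented by 6 genes of the IFT-B complex, which drives transport towards the ciliary tip. The largest difference among them was in ift57.S, which stood at 6.37, 6.48 and 7.15 in MO13_C13, at 6.05, 6.38 and 7.13 in MO13, and at 5.68, 5.35 and 6.27 in CMO. In every experiment the CMO array was the lowest, and the MO13_C13 arrays did not overlap the CMO arrays, although experiment 3 ran high in all groups. MO13_C13 averaged 6.67 ± 0.42 against 5.77 ± 0.47 in CMO (SD, n = 3 each), a log2 difference of 0.90 (1.87-fold, 95% interval 0.10 to 1.70), with 0.69, 1.13 and 0.88 in the 3 experiments. This did not pass without the experiment block (limma adjusted p = 0.633) and passed with it (limma adjusted p = 0.0311), as 1.76% of all probe sets did in that fit. With the block the 95% interval was 0.57 to 1.23. MO13 against CMO gave 0.75 (0.37, 1.03 and 0.86 by experiment; limma adjusted p = 0.75, or 0.0601 with the block), and MO13_C13 against MO13 0.15 (95% interval -0.65 to 0.95).

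None of the other 5 transport genes passed in any comparison, with or without the block, and none had an unadjusted p under 0.05 in either limma fit. Their MO13_C13 minus CMO differences ran from -0.31 in ift80.L to 0.29 in ift22.S, with 0.24 in ift27.L, 0.19 in ift46.S and 0.15 in ift20.L. The values of ift27.L, a small GTPase that links transport to the BBSome, show how wide the spread was: 2.62, 3.28 and 5.10 in MO13_C13, 3.01, 2.79 and 4.28 in MO13, and 2.97, 3.30 and 4.02 in CMO. Its highest array in every group was that of experiment 3. For ift80.L the lowest array of every group was that of experiment 3, with 4.94 in MO13_C13, 4.46 in MO13 and 5.07 in CMO. Arrays of experiments 1 and 2 read 5.58 and 5.73, 6.21 and 5.97, and 6.48 and 5.63 in those groups.

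The BBSome and its assembly factors gave no call either, and no unadjusted p under 0.05, in limma with or without the block. The subunit gene bbs5.L averaged 4.94 ± 0.24 in MO13_C13, 4.79 ± 0.68 in MO13 and 5.17 ± 0.37 in CMO (SD, n = 3 each), with a MO13 minus CMO difference of -0.38 (95% interval -1.15 to 0.40, limma adjusted p = 0.936). The chaperonin-like genes bbs10.L and bbs12.L, which help to assemble the complex, differed by 0.06 and -0.13 between MO13 and CMO, and by 0.30 and -0.18 between MO13_C13 and CMO. In bbs10.L the experiments differed more than the groups, with means over the 3 arrays of 3.70, 4.12 and 4.87 in experiments 1, 2 and 3.

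Among genes of the multiciliated cell, the RFX transcription factor gene rfx2.S read 5.25, 5.03 and 4.78 in MO13_C13, 5.94, 4.73 and 4.31 in MO13, and 5.20, 4.23 and 3.63 in CMO. Both groups with the ADAM13 morpholino were above CMO in each experiment, by 0.05, 0.80 and 1.15 for MO13_C13 and by 0.74, 0.50 and 0.68 for MO13, yet the groups overlap because the experiments lie far apart. The mean differences of 0.67 and 0.64 did not pass (limma adjusted p = 0.915 and 0.911, or 0.213 and 0.223 with the block). For ccno.L, whose values are given above, the differences from CMO were 0.29 for MO13_C13 and 0.25 for MO13, within the spread between arrays (limma adjusted p = 0.993 and 0.982). The centrin gene cetn4.L, which encodes a calcium-binding protein of basal bodies, read 7.61, 7.70 and 7.13 in MO13_C13, 6.83, 7.62 and 6.71 in MO13, and 6.87, 7.30 and 6.21 in CMO. MO13_C13 was the highest group in each experiment, by 0.74, 0.40 and 0.92 over CMO and by 0.78, 0.08 and 0.42 over MO13. Its mean difference from CMO of 0.69 (1.61-fold, 95% interval -0.08 to 1.45) missed the threshold without the block and with it (limma adjusted p = 0.758 and 0.0838). With the block the 95% interval was 0.32 to 1.05.

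Tektins are filament proteins that run along the doublet microtubules of motile cilia. The tektin gene tekt4.S read 3.94, 3.80 and 3.81 in MO13_C13, 3.25, 3.49 and 3.02 in MO13, and 3.52, 3.40 and 3.25 in CMO. The MO13_C13 arrays lay above all arrays of the other groups, by a mean of 0.60 over MO13 (1.51-fold, 95% interval 0.27 to 0.93) and 0.46 over CMO (95% interval 0.13 to 0.79). Neither difference passed (limma adjusted p = 1 and 0.444, or 0.721 and 0.123 with the block). It was the only member whose MO13_C13 and MO13 arrays did not overlap, where 4.51% of all probe sets did not overlap in that comparison. Of the other tektins, tekt2.L read 1.29, 1.33 and 1.28 in MO13_C13, 1.28, 1.40 and 1.29 in MO13, and 1.65, 1.41 and 1.59 in CMO. All 6 arrays with the ADAM13 morpholino were below the CMO arrays, by 0.25 for MO13_C13 and 0.23 for MO13 (limma adjusted p = 0.675 and 0.75), at intensities under the lower quartile of each array. Its homeologue tekt2.S differed from CMO by 0.26 in MO13_C13 and 0.10 in MO13, and tekt1.L by 0.21 and 0.18, with overlapping groups in each case.

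The dynein arm genes, which encode the motors that bend the axoneme, differed little between groups. Their 7 probe sets, from 5 genes, differed between MO13_C13 and CMO by -0.20 to 0.16 and between MO13 and CMO by -0.32 to 0.05. None passed in any comparison or had an unadjusted p under 0.05, in limma with or without the block. The outer arm heavy chain dnah9.S averaged 1.24 and 1.08 (its pair of probe sets) in MO13_C13, 1.32 and 1.12 in MO13, and 1.35 and 1.28 in CMO. The intermediate chain genes dnai1.L, of the outer arm, and dnai4.S, of the inner arm, ranged more widely. The gene dnai4.S read 4.60, 3.78 and 3.99 in MO13_C13, 3.60, 3.83 and 4.06 in MO13, and 4.75, 4.02 and 3.69 in CMO. In experiment 1 the MO13 array of dnai4.S was 1.15 below its CMO array and in experiment 3 it was 0.37 above, so the sign differed between experiments. The inner arm light intermediate chain gene dnali1.S was highest in experiment 3 in every group, at 2.33 in MO13_C13, 2.13 in MO13 and 2.02 in CMO, against 1.29 to 1.60 in the other experiments. The light chain gene dnal4.S differed by at most 0.11 in either direction across its pair of probe sets and the 3 comparisons.

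The 11 probe sets of the cfap genes were higher in MO13_C13 than in MO13 without exception when group means were compared, by 0.04 to 0.57 with a median of 0.28, yet none passed with or without the block (lowest limma adjusted p = 1 and 0.721; 0.00646% of all probe sets passed in either fit). Without the block none had an unadjusted p under 0.05. With it cfap298.L (0.46, limma unadjusted p = 0.0305) and one cfap45.S probe set (0.47, limma unadjusted p = 0.0474) did, where 6.71% of all probe sets did. The 11 probe sets come from 8 gene copies, and the count was less even by experiment: 10 of 11 were higher in experiment 1 (median 0.65), 7 in experiment 2 (0.08) and 7 in experiment 3 (0.13). Of all probe sets, 49.0% were higher in MO13_C13 than in MO13. The smallest of the 11 differences, 0.04 on a cfap45.S probe set, changed sign in 4 of the alternative fits described below, 3 of them leaving arrays out. The widest difference was in cfap45.L, which encodes a protein inside the doublet microtubules: 6.04, 4.32 and 5.53 in MO13_C13, 4.69, 4.37 and 5.13 in MO13, and 3.96, 3.48 and 5.02 in CMO. It was above CMO by 2.08, 0.84 and 0.51 in MO13_C13 and by 0.73, 0.89 and 0.11 in MO13, and the 1.14 mean difference for MO13_C13 (2.21-fold, 95% interval -0.02 to 2.31) did not pass (limma adjusted p = 0.715, or 0.121 with the block). With the block the 95% interval for cfap45.L was 0.44 to 1.85. Its homeologue cfap45.S showed 0.58 on one probe set (limma adjusted p = 0.686) and 0.14 on the other. The dynein arm assembly gene cfap298.L read 7.49, 7.35 and 7.75 in MO13_C13, 6.59, 7.27 and 7.35 in MO13, and 6.58, 7.29 and 7.22 in CMO. Its MO13_C13 arrays lay just above all CMO arrays, by 0.50 on average (limma adjusted p = 0.799, or 0.217 with the block).

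Copies and probe sets of the same cfap gene did not always read alike. For cfap20.L, a protein of the inner junction between doublet microtubules, the 3 probe sets gave MO13_C13 minus MO13 differences of 0.06, 0.54 and 0.24. On the probe set with 0.54 the MO13 arrays read 4.15, 5.02 and 5.68, so a low MO13 array in experiment 1 set the mean. The microtubule inner protein gene cfap52.L was lower in MO13 than in CMO, at 1.74, 2.04 and 1.97 against 2.64, 2.37 and 2.03, a difference of -0.43 (limma adjusted p = 0.722) that was -0.90, -0.33 and -0.06 by experiment. Its homeologue cfap52.S gave -0.09. The remaining cfap members, cfap161.L and cfap36.L, differed by -0.07 each between MO13 and CMO, and by 0.21 and 0.06 between MO13_C13 and CMO.

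**Figure D2:**
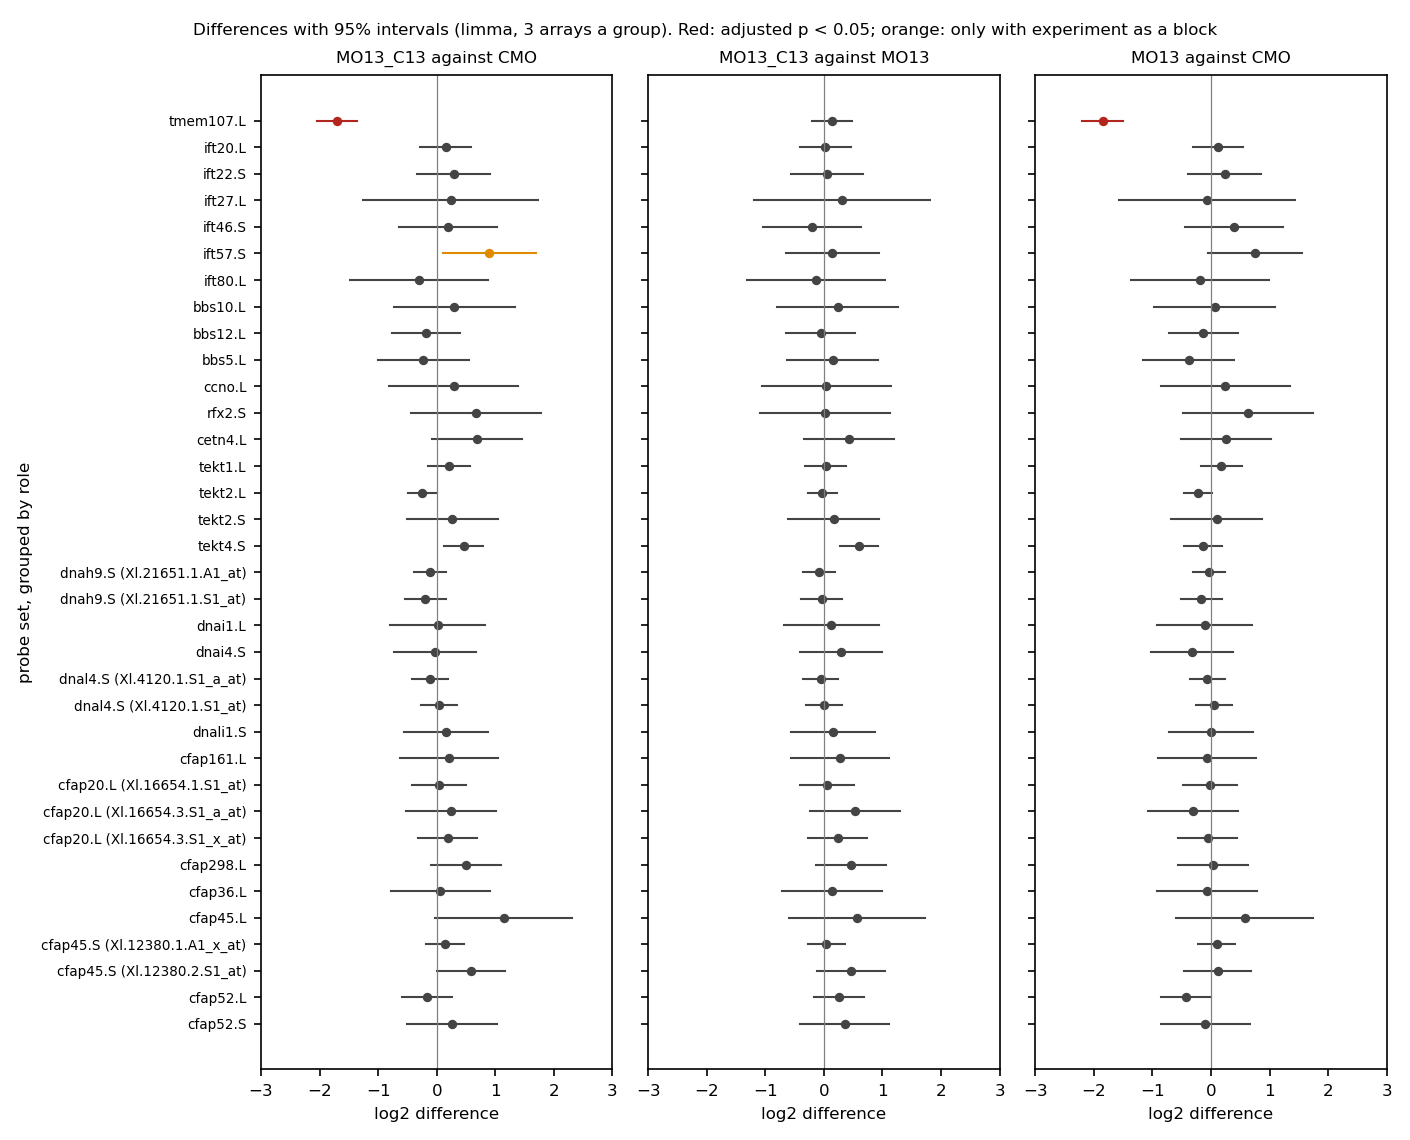
Log2 differences of the 35 cilium probe sets with 95% intervals (limma without the experiment block, 3 arrays a group), ordered by role, for MO13_C13 against CMO, MO13_C13 against MO13 and MO13 against CMO. The tmem107.L intervals (red) lie below 0 in the comparisons with CMO (-2.05 to -1.36 and -2.20 to -1.50), ift57.S (orange) passed only with experiment as a block in MO13_C13 against CMO, and all other members did not pass.

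As a group, the 35 members were higher in MO13_C13 than in MO13 at 27 probe sets and lower at 8 (77.1% higher, against 49.0% of all probe sets), with a median difference of 0.14 where that of all probe sets was -0.003. By experiment the median of the members was 0.32, -0.01 and 0.20, with 22, 17 and 23 of 35 higher. Higher values in all 3 experiments were found in 8 members, against 11.7% of all probe sets, and lower values in all 3 in none, against 14% of all. None passed in limma, and at an unadjusted p under 0.05 there was 1 member (tekt4.S), or 4 with the block, where 1.36% and 6.71% of all probe sets were. Against CMO, MO13_C13 was higher at 25 and lower at 10, with a median of 0.18 (0.16, 0.03 and 0.15 by experiment). There 14 members were higher in all 3 experiments and 4 lower, where 19.1% and 19.8% of all probe sets were, and 6 members did not overlap between the groups (4 higher, 2 lower), where 12.6% of all probe sets did not. MO13 against CMO was close to even, with 15 higher, 19 lower and 1 at 0, a median of -0.03, and 2 members without overlap, both lower, where 9.92% of all probe sets did not overlap. These comparisons share arrays pair by pair, the members share genes and cells, and the median half-width of the 95% interval was 0.70 without the block and 0.40 with it, so shifts of the size of these medians were below what a single member could show.

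Most markers of the embryonic epidermis, the tissue that holds multiciliated cells, also had higher means in MO13_C13. Of their 27 probe sets, from 11 genes, 23 were higher and 4 lower in MO13_C13 than in MO13, where 49.0% of all probe sets were higher. The median was 0.31 (0.36, 0.55 and 0.14 in experiments 1 to 3). Against CMO, 21 were higher and 6 lower in MO13_C13, where 49.2% of all probe sets were higher. The median was 0.21 (0.25, 0.18 and 0.11 by experiment). In MO13 against CMO, 8 were higher and 18 lower (median -0.16). The sum of their linear intensities was 13570 to 15430 in MO13_C13, 10240 to 13250 in MO13 and 11750 to 14090 in CMO, and 4 of the 27 were under the lower quartile on all arrays. This sum rests mainly on the brightest probe sets, such as those of krt70.S (11.71 and 11.56 in the MO13_C13 array of experiment 1). None passed without the block. With the block the claudin gene cldn6.2.S passed as higher in MO13_C13 than in CMO (0.94, limma adjusted p = 0.0172), where 1.76% of all probe sets passed. So did the dim surface ectoderm factor gene grhl3.L (2.96 against 2.16, difference 0.80, limma adjusted p = 0.0287). Other markers, such as itln1.L (3.23 against 7.09) and krt12.4.S (6.07 against 8.42), were lower in MO13_C13 than in CMO in experiment 3. Both were higher in experiments 1 and 2. In experiment 2 the epidermal median for MO13_C13 against MO13 was at its highest (0.55) while that of the cilium members was -0.01. Higher means were not particular to the epidermis. Neural plate markers (29 probe sets of 9 genes) were higher in MO13_C13 than in MO13 at 20 and lower at 9 (median 0.08). Against CMO they were higher at 22 and lower at 7 (median 0.24). Of all probe sets, 49.0% and 49.2% were higher in these comparisons. Several of the 29 read the same genes, such as pax6 and hes5, so they are not separate markers. All 5 probe sets for ionocytes and small secretory cells of the skin were also higher in MO13_C13 than in MO13 (median 0.55) and CMO (median 0.66), at summed linear intensities of 21.2 to 79.8, 18.1 to 40.9 and 16.3 to 22.9 in MO13_C13, MO13 and CMO. These probe sets were dim. Of the 5 measured genes, 0 had a probe set above the median on all arrays, foxa1 was under the lower quartile on all arrays and foxi1.L on 8 of the 9. By experiment those medians were 0.58, 0.86 and -0.17 against MO13, and 0.35, 1.43 and 0.32 against CMO. The MO13_C13 array of experiment 2 was the highest of the 9 for ca12.L (5.43), ubp1.L (4.04), atp6v1b1.L (3.70) and foxi1.L (2.00), and without it, an alternative chosen after seeing the data, the medians were 0.10 against MO13, with 3 of the 5 higher, and 0.09 against CMO, with 5 of the 5 higher. The part of these cells in the cilium values was not tested.

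**Figure D3:**
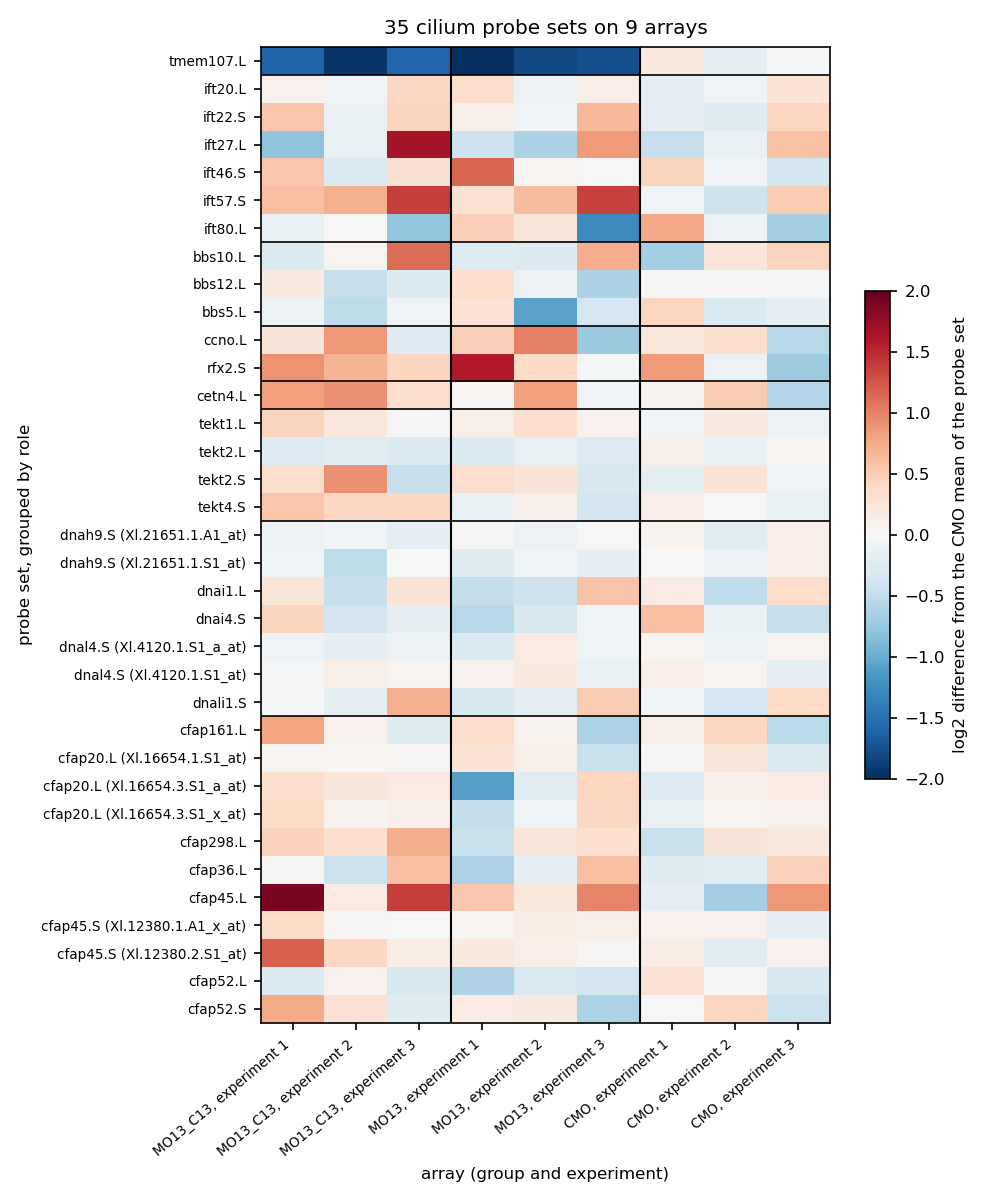
Log2 difference of each of 35 cilium probe sets (rows, by role) from its own CMO mean on the 9 arrays (columns, by group and experiment), from blue (lower) to red (higher). The tmem107.L row is blue on all 6 MO13_C13 and MO13 arrays, whereas in 28 of 35 rows the experiment accounts for more of the variation than the group.

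The experiment accounted for more of the members' variation than the group did. The median share of the sum of squares was 54.2% for experiment and 14.9% for group over the 35 members, against 45.0% and 19.6% over all probe sets, and the experiment share was the larger in 28 of 35 members (69.5% of all probe sets). The exceptions with the highest group share were tmem107.L, tekt4.S (78.6%) and tekt2.L (73.4%). Means of experiments ranged most widely in ift27.L (1.60), ift80.L (1.27), ccno.L (1.26), rfx2.S (1.22), cfap45.L (1.17) and bbs10.L (1.16).

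The direction of these differences between experiments was not common to all cilium genes. Experiment 3 was the lowest for 15 members and the highest for 14. Among the lowest were the multiciliated cell genes ccno.L (means of 2.77, 3.19 and 1.93 in experiments 1, 2 and 3), rfx2.S (5.46, 4.66 and 4.24) and cetn4.L (7.10, 7.54 and 6.68), and 3 of the 4 tektins. Among the highest were 4 of the 6 transport genes, such as ift57.S (6.03, 6.07 and 6.85) and ift27.L (2.87, 3.12 and 4.47). The transport gene ift80.L was instead lowest in experiment 3. Dynein arm and cfap genes lay on both sides. Experiment 3 was the highest for 3 of the 7 dynein arm probe sets and the lowest for 1. For the 11 cfap probe sets it was the highest for 5 and the lowest for 6. The order of experiments was a description of these 9 arrays and was not tested.

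**Figure D4:**
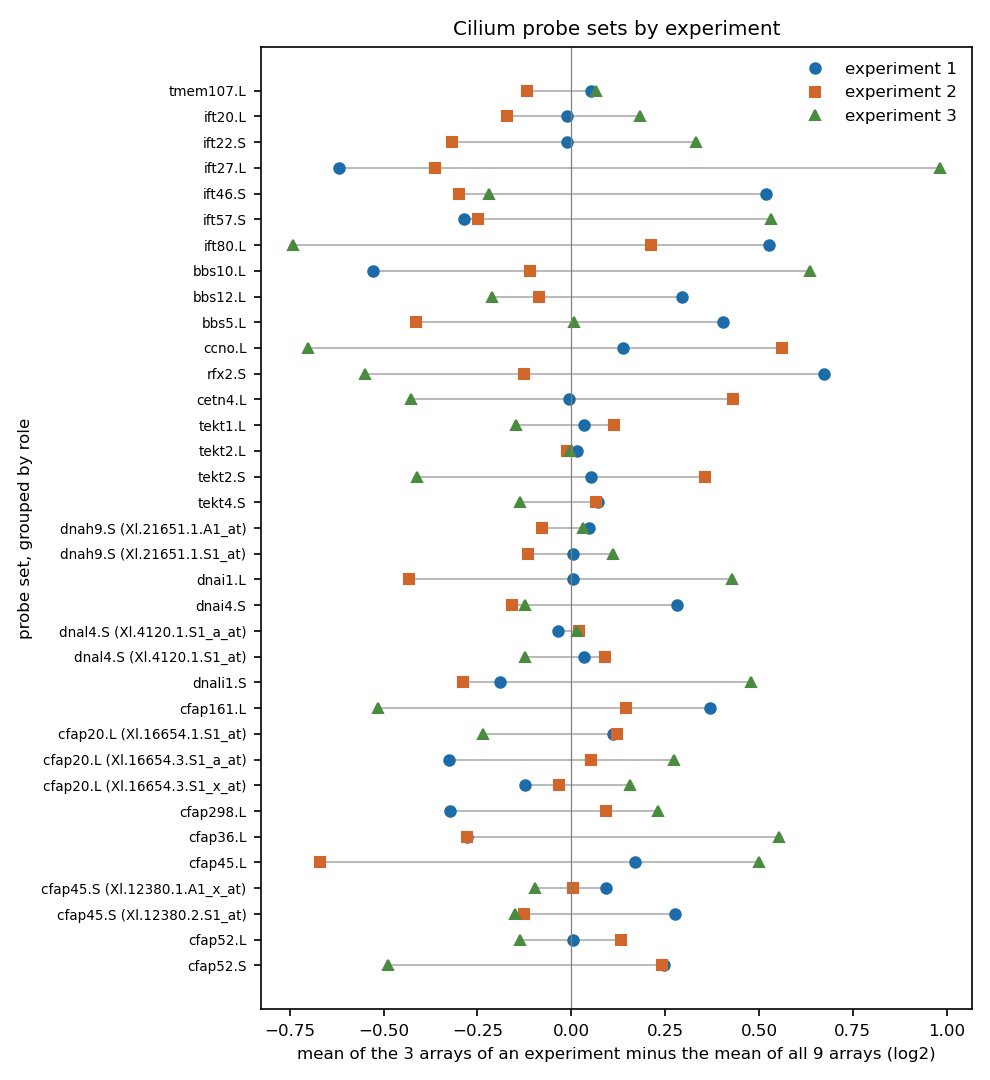
Mean log2 intensity of each cilium probe set in experiments 1, 2 and 3 (3 arrays each, one of each group) minus its mean over all 9 arrays, by role. Experiment 3 (triangles) lies left of 0 for ccno.L, rfx2.S, cetn4.L and ift80.L and right of 0 for ift27.L and ift57.S. Dynein arm and cfap probe sets lie on both sides. The means of tmem107.L (range 0.18) and tekt2.L (range 0.03) lie close together.

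Further cilium genes outside the naming rule were read from 8 lists, with 88 probe sets of 79 gene copies, and none passed in any of the 3 comparisons with or without the block (lowest limma adjusted p = 0.199 and 0.0749, both for MO13_C13 against CMO). Without the block 4 of the 88 had an unadjusted p under 0.05 in MO13_C13 against CMO, 2 in MO13_C13 against MO13 and 4 in MO13 against CMO, where 7.15%, 1.36% and 6.87% of all probe sets did. With the block the counts were 13, 8 and 10, where 16.1%, 6.71% and 16.4% did. The medians over the 88 were 0.03 for MO13_C13 against CMO, 0.04 for MO13_C13 against MO13 and -0.02 for MO13 against CMO. The basal body and centriole list had 20 probe sets, 12 higher and 8 lower in MO13_C13 than in CMO (median 0.13), and held the smallest p: the centrin gene cetn3.S averaged 11.18 in MO13_C13 against 10.66 in CMO (difference 0.51). The 16 other axoneme probe sets had medians of -0.17 for MO13_C13 and -0.12 for MO13 against CMO, with -0.66 for MO13 in odad4.L, a dynein arm docking gene, and -0.48 in nme5.L (limma adjusted p = 0.753 and 0.687, or 0.113 and 0.148 with the block). The radial spoke gene rsph1.L was on the other side, at 3.03 in MO13_C13 against 2.47 in CMO (0.55, limma adjusted p = 0.857, or 0.0924 with the block).

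No member of the remaining lists passed, with or without the block. Dynein assembly factors (6 probe sets) had medians of 0.01 for MO13_C13 and 0.04 for MO13 against CMO, although dnaaf5.L averaged 6.87 in MO13_C13 against 7.35 in MO13 (-0.48, limma adjusted p = 1). Transport motors and cargo adaptors (8 probe sets) had medians of 0.08 and -0.06 against CMO. Of their small GTPase genes, arl3.S averaged 5.59 in MO13_C13 against 4.92 in MO13 (0.67, limma adjusted p = 1) and 5.03 in CMO (0.56, limma adjusted p = 0.614). The mean of arl6, which recruits the BBSome, was 5.94 in MO13_C13 and 5.96 in MO13 against 6.37 in CMO (-0.43 and -0.40, limma adjusted p = 0.686 and 0.75). Other regulators of multiciliated cells (5 probe sets) were higher in MO13_C13 than in CMO at 3 and lower at 2 (median 0.03), and lower in MO13 than in CMO at all 5 (median -0.14; -0.41, 0 and 0.18 by experiment). Planar polarity genes (12 probe sets), which orient cilia, were higher in MO13_C13 than in MO13 at 9 and lower at 3 (median 0.21; 0.06, 0.24 and -0.08 by experiment). Against CMO they were higher at 9 and lower at 3 in MO13_C13 (median 0.08), and higher at 3 and lower at 8 in MO13 (median -0.10). The hedgehog pathway, which signals through the primary cilium, had 15 probe sets with 11 lower and 4 higher in MO13_C13 than in CMO (median -0.10) and 9 lower and 6 higher in MO13 (median -0.04). Its receptor-side transducer smo.L averaged 8.80 in MO13_C13 and 8.76 in MO13 against 9.06 in CMO (-0.26 and -0.31, limma adjusted p = 0.881 and 0.826). The hedgehog-binding hhip.L was -0.52 in MO13 against CMO on one dim probe set (means 1.53 and 2.05, limma adjusted p = 0.405). On a second probe set, also dim (means 2.28 and 2.65), it was -0.37 (0.01, -0.63 and -0.48 by experiment, limma adjusted p = 0.777).

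The authors' deposited table of genes affected by the loss of ADAM13, at their p under 0.01 by a test not named in the sources used here, held 10 of the 35 members (28.6%), where it held 39.5% of all probe sets. These were bbs5.L, cfap45.L, cfap52.L, ift22.S, ift46.S, ift57.S, rfx2.S, tekt1.L, tekt2.L and tmem107.L. The log2 change of MO13 over CMO in the authors' deposited table was -1.85 for tmem107.L, 0.75 for ift57.S and 0.64 for rfx2.S. The authors' deposited table of genes affected by both the loss and the added domain held 2 members (5.71%), cfap52.L and ift57.S, where it held 13.5% of all probe sets. Of the 10 members in the first table, tmem107.L alone passed at an adjusted p under 0.05 in the limma fit of MO13 against CMO.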

How the data were processed

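Total RNA of 9 crest explant samples was hybridised to Affymetrix X. laevis arrays. Each deposited value is the log2 intensity of a probe set after GC-RMA, which the submitters' processing notes name beside Affymetrix Expression Console; their versions are not given here, and detection calls and scanner files were not used here. Low intensity therefore cannot be told from background, and 3 arrays a group limit the precision. In the authors' deposited lists the average changes are differences of log2 group means, per the file headers, and the array values equal the value table (largest difference 0).

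Of 15491 probe sets, 9304 carry 1 symbol in the array annotation, 195 several and 5992 none; no member probe set carries several. All 35 members' gene identifiers matched the RefSeq gene table, which changed 0 symbols. Sequences were not used here. Reading every name stem as needing a digit after it would drop dnali1.S and leave 34.

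All probe sets were fitted with limma 3.58.1 (lmFit, eBayes) in R 4.3.3, group as the only term, 9 arrays in one fit, two-sided, Benjamini-Hochberg adjusted over all probe sets, threshold 0.05. The group-only fit was tested on simulated arrays with independent noise and no shared experiment effect, unlike these data. Labels tie arrays of one number to one experiment. Their deviations from group means correlated at 0.506 to 0.734 (9 pairs), against -0.464 to -0.059 for the other 18 pairs. Deviations cancel out within a group, so positive same-experiment pairs push the other pairs to negative values. Given the labels and the positive pairs, a fit with the experiment as a block was the alternative weighed most. Others were the compared arrays alone, a filter on dim probe sets, array medians subtracted, a trended robust prior, one probe set a gene, and leaving out arrays or experiments.

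Named were probe sets of tmem107, tekt4, rfx2, ccno and cetn4, members with an unadjusted p under 0.05 in either fit or among the 6 smallest, those with the largest range between experiments, the brightest and dimmest members, and up to 4 probe sets of each further list. The members, the 8 further cilium lists and the 6 marker lists were chosen with earlier results of these data known.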

Additional observations from a re-analysis of the deposited data

How the results depend on the processing

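The 19 member differences with an unadjusted p under 0.05 with or without the block, or belonging to tmem107.L or a tekt4 gene, kept their direction in all 22 alternatives that measured them. They were mostly picked by their p in these same arrays, so the stable direction was largely set by that choice and adds no support. Over all 35 members, the direction changed in at least 1 alternative for 21 in MO13 against CMO, 25 in MO13_C13 against MO13 and 13 in MO13_C13 against CMO, and with every array of the compared groups kept for 4, 6 and 0. None of these differences had passed, and the largest were 0.32, 0.31 and 0.31 in size. Several members changed direction in all 3 comparisons, among them bbs10.L, ift27.L, ift80.L, cfap36.L, dnai1.L and tekt2.S, each time with arrays left out. In MO13 against CMO the count of passing members, 1 in the reported fit, was 1 with the replicate block, 0 with only the compared arrays, 0 with these and the block, 0 with the filter on dim probe sets, which left 10 of the 35 members and dropped tmem107.L, and 0 to 1 when an array or experiment was left out. In MO13_C13 against CMO it was 1 in the reported fit, 2 with the replicate block (tmem107.L and ift57.S), 2 with the compared arrays and the block, 0 with the filter, and 0 to 1 with an array or experiment left out. In MO13_C13 against MO13 it was 0 in all 22 alternatives, while 1 member (tekt4.S) had an unadjusted p under 0.05 in limma, and 4 with the block. With only the compared arrays the adjusted p of tmem107.L in MO13 against CMO was 0.0617, or 0.0629 with the block. The replicate block changed no other call on a member. Leaving out whole experiments while keeping the block was chosen after seeing the data; tmem107.L in MO13 against CMO then had adjusted p of 0.0706, 0.235 and 0.0588, where 2 arrays a group remain. ift57.S in MO13_C13 against CMO passed in 2 of 22 alternatives, both with the block and all arrays of the compared groups. The median over members ranged from -0.03 to 0.06 for MO13 against CMO, so its sign depended on the setting, and the cause was not tested; it ranged from 0.06 to 0.26 for MO13_C13 against MO13 and 0.05 to 0.25 for MO13_C13 against CMO. Dim members are limited by signal over background, which the deposited values do not give.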

Other observations

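Markers of other tissues that border the crest were read in the same fits. Neural plate markers (29 probe sets) were higher in MO13_C13 than in CMO at 22 and lower at 7 (median 0.24), and none passed. In MO13 against CMO, 19 were higher and 8 lower (median 0.12). The adhesion gene ncam1.L averaged 8.73 in MO13_C13 and 8.66 in MO13 against 8.12 in CMO (limma adjusted p = 0.319 and 0.447). The tubulin gene tubb2b.S was lower, at 9.75 in MO13 against 10.16 in CMO (limma adjusted p = 0.4565), with 9.99 in MO13_C13. Crest markers (32 probe sets) had medians of -0.13 for MO13_C13 and -0.10 for MO13 against CMO, and none passed. Of the dim muscle markers, the troponin gene tnnt3.S averaged 2.42 in MO13_C13 and 2.53 in MO13 against 3.54 in CMO, and was lower in all 3 experiments in both comparisons. It passed as lower with the experiment block (limma adjusted p = 0.0172 and 0.0252), where 1.76% and 1.16% of all probe sets passed, but not without it (0.0962 and 0.159). The 8 muscle probe sets together were higher in MO13_C13 than in CMO at 5 and lower at 3 (median 0.008), and higher in MO13 than in CMO at 3 and lower at 5 (median -0.03); both probe sets of the troponin gene tnni2.S were higher in MO13_C13 than in CMO by 0.27 and 0.19 (limma adjusted p = 0.851 and 0.948). Among markers of the floor plate, notochord and node, a tissue with cilia of its own, a chordin probe set, chrd.1.S, averaged 2.90 in MO13 against 3.71 in CMO, and passed as lower with the block (limma adjusted p = 0.0388) but not without it (0.633), while shh, tbxt and ttr were under the lower quartile on all arrays. A brighter chordin probe set did not pass, and in experiment 1 it was higher in MO13 (7.22) than in CMO (6.92). The 10 probe sets of this list were higher in MO13 than in CMO at 4 and lower at 6 (median -0.02).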
